A study of Mus musculus with 6 samples.

Results

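The genes described here encode potassium channel subunits, the pore-forming and auxiliary proteins whose mouse symbols begin with Kcn. They were taken by symbol alone, with no filter on level, which gave 59 of the 15016 genes listed. RNA-seq was measured in organoids grown from wild-type mouse cochlear progenitor cells, with 3 libraries from soft hydrogels and 3 from stiff hydrogels. Both groups shared the expansion medium and then a differentiation medium with the GSK3 inhibitor CHIR99021 and the gamma-secretase inhibitor LY411575, which act on the Wnt and Notch pathways; by the labels only the stiffness of the gel differed. The sources used here do not give the stiffness values, the time in the gels or the culture behind each library, so p-values measure the spread between libraries, which may be technical. In such bulk samples, fewer cells of a type and less RNA per cell cannot be told apart.

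Potassium channels let potassium ions pass selectively through the membrane. Voltage-gated channels (Kv) open on depolarization, inward rectifiers (Kir) pass current more easily into the cell than out of it, tandem-pore channels (K2P) carry a background current, and calcium-activated channels couple the membrane to internal calcium. In the cochlea, potassium is the main charge carrier of hair cell transduction, and epithelial cells around the hair cells and in the stria vascularis return it to the endolymph. The list held 28 Kv pore genes, 6 Kv auxiliary genes, 12 Kir genes, 4 K2P genes, 7 calcium-activated pore genes (with the sodium-activated Kcnt2 and the sperm channel gene Kcnu1 placed among them by family) and 2 auxiliary genes of the calcium-activated BK channel. Of the 93 mouse symbols in RefSeq that match the same naming rule, the other 34 were not analysed here, among them Kcne1 and Kcna10.

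The pore genes share a short signature in their coding sequence, shown here for the members on which the results turn. It encodes the selectivity filter, the loop that strips water from the ion; its best known form reads threonine, any residue, glycine, tyrosine, glycine. In the longest coding sequence of each gene (GENCODE M21 transcripts, build GRCm38), in-frame codons for exactly this series of residues, in any synonymous spelling, were found in 37 of 59 members (62.7%), against 114 of 21562 coding genes (0.529%). A form with phenylalanine, or leucine coded by TTA or TTG, in place of tyrosine was found in 6 of 59 members (10.2%) and 173 coding genes (0.802%). None of the 8 auxiliary members held either form, while 4 of 4 K2P, 11 of 12 Kir, 23 of 28 Kv pore and 4 of 7 calcium-activated pore genes held at least 1 of them. The 5 Kv pore genes without a match were Kcnh1, Kcnh2, Kcnh3, Kcnh6 and Kcnh8; a missing match says only that these letters are not there. In the lines below, each coding stretch is given 5′ to 3′ with the signature in capitals.
Kcnk1: gtgctctccACCACAGGCTATGGCcacacg
Kcnk2, first match: gttatcacaACCATAGGATTTGGAaacatc
Kcnk2, second match: actctgacgACCATTGGATTTGGAgactac
Kcnj2: acccagacaACCATTGGCTATGGTttcagg
Kcnj10: tcccagaccACCATCGGCTATGGCttccgc
Kcnma1: acaatgtctACAGTGGGTTATGGGgacgtt

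The stretch of Kcnk1 lies on chr8:125995799-126025025 (plus strand) and is split by an intron between coding exons 1 and 2. The first of Kcnk2, on chr1:189258885-189295609 (minus strand), is likewise split between exons 3 and 4, and the second lies within exon 5 on chr1:189256575-189256604. The others lie within 1 exon each: Kcnj2 on chr11:111072198-111072227 (plus strand, exon 2), Kcnj10 on chr1:172369293-172369322 (plus strand, exon 2) and Kcnma1 on chr14:23528407-23528436 (minus strand, exon 8). Kcnk2 thus carried the phenylalanine codon TTT at the place where the other 4 genes carried the tyrosine codon TAT.

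Depth was 16108470 to 17899391 reads per library over the listed genes, rebuilt from the deposited values, and the potassium channel subunits took 416 to 444 CPM (counts scaled to library depth). The labelled source was checked against marker genes. All 14 supporting and prosensory cell markers were listed and 11 had a mean of at least 1 FPKM (fragments per kilobase of gene, scaled to library depth), with Epcam at 229 ± 21.1 FPKM (SD, n = 3) in soft and 268 ± 16.3 in stiff gels. Of 10 hair cell markers 6 were listed, and 3 reached 1 FPKM. In soft and stiff gels Myo6 was at 21.8 and 23.3, Calb2 at 5.03 and 10.5 (without overlap) and Myo7a at 1.64 and 1.64 FPKM. Otof, the synaptic gene of mature hair cells, was at 0.02 and 0.01 FPKM. The hair cell list summed to 28.2 to 29.5 FPKM in soft and 32.9 to 40.9 FPKM in stiff libraries. All 10 mesenchyme markers were listed and 8 had a mean of at least 1 FPKM. In soft and stiff gels Pou3f4 was at 57.1 and 58.5, Tbx18 at 52.8 and 58.3, Lum at 326 and 411 and Dcn at 125 and 181 FPKM. Col3a1 was at 72.7 and 35.1, Col1a1 at 0.18 and 0.12 and Col1a2 at 0.52 and 0.13 FPKM. The mesenchyme list summed to 604 to 735 FPKM in soft and 764 to 784 FPKM in stiff libraries, without overlap. Among the 21 tested members, the soft library nearest to the stiff mean was soft replicate 1 for 10, replicate 2 for 5 and replicate 3 for 6. For the 12 with an unadjusted p under 0.05, soft replicate 1 was nearest for 9. Those 12 were picked by the same comparison, and the share over all tested genes was not computed, so this describes the members only.

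RNA of potassium channel subunits was mostly low and was dominated by a pair of K2P genes. Kcnk2, which encodes the stretch-sensitive TREK channel (chromosome 1, 189207930 to 189402782, build GRCm38), had 21.5, 28.4 and 27.9 FPKM in soft replicates 1 to 3 and 18.4, 22.9 and 18.4 FPKM in stiff replicates 1 to 3. Kcnk1, which encodes the weakly conducting background channel TWIK (chromosome 8, 125993655 to 126030685), had 10.5, 8.12 and 8.17 FPKM in the soft group and 13.4, 11.5 and 13.6 FPKM in stiff gels. Together they made up 42.5% to 48.4% of the summed FPKM of all 59 members in each library. Every library had more Kcnk2 than any library had Kcnk1 on this scale. Next came Kcnd3 (mean over 6 libraries 3.06 FPKM), Kcnip3 (2.74), Kcns3 (2.22) and Kcna2 (2.01), whose values overlapped in part between neighbours in this order. At the other end, 14 members had a mean under 0.1 FPKM, and 3 members (Kcna5, Kcng4 and Kcnj9) had no read in at least 1 library. The summed FPKM over all members was 72.1 to 79.5 in soft and 71.3 to 75.1 in stiff libraries, so the groups overlapped, and the K2P share was 47.4% to 50.9% in soft and 45.3% to 48.4% in stiff gels.

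**Figure D1:**
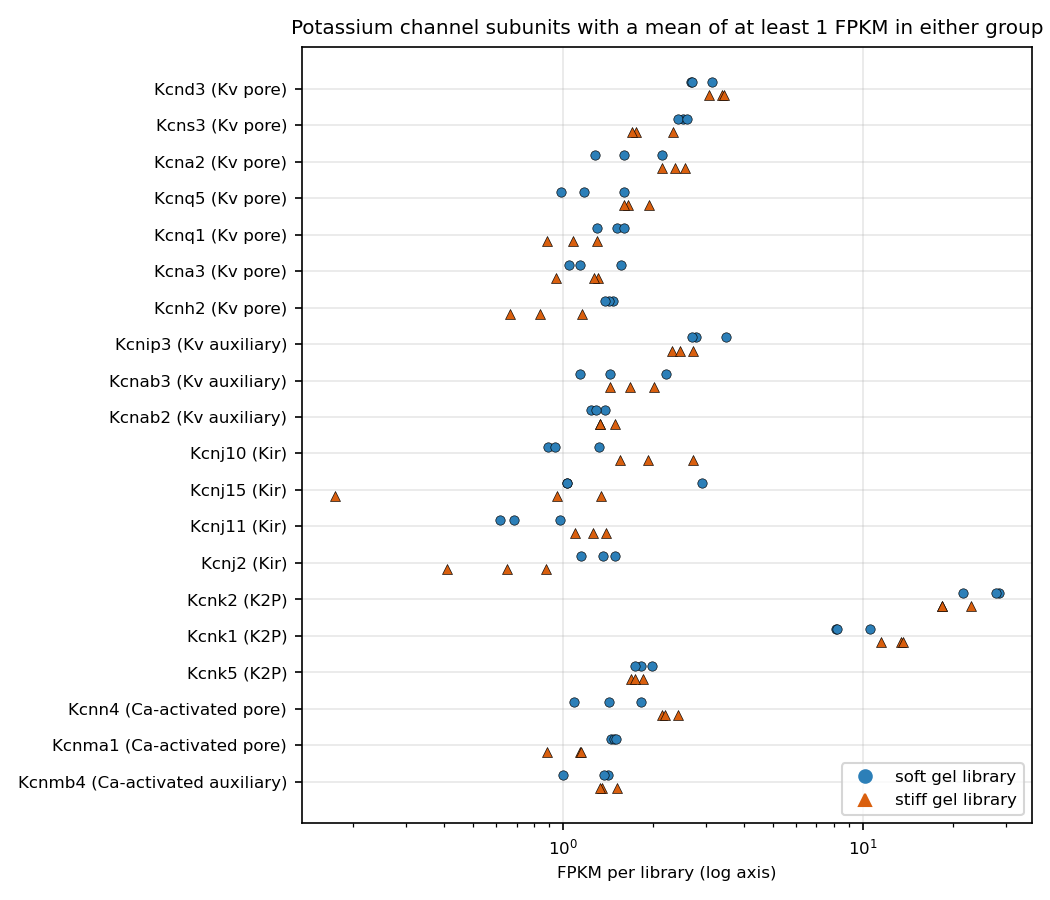
FPKM per library on a log axis for 20 of the 21 potassium channel subunits with a mean of at least 1 FPKM in either group, ordered by subfamily; circles are soft and triangles stiff gel libraries. Kcnk2 and Kcnk1 lie above all others, between 8.12 and 28.4 FPKM.

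The order of the levels depended on the gene length behind the values. The deposited FPKM rest on 4123 bases for Kcnk2 and 5452 bases for Kcnk1, lengths that can be read back from the values, while the exons annotated in GENCODE M21 add up to 4943 and 2235 bases. Levels with GENCODE lengths keep the reads behind the deposited FPKM and take all of these to lie in GENCODE exons, which was not checked. Reads outside those exons would make such a level too high. With the GENCODE lengths the mean level was 19.1 FPKM for Kcnk2 and 26.5 FPKM for Kcnk1, a ratio of 0.72 in place of 2.11. The order below them also changed, with Kcnip3 at 4.63, Kcnd3 at 3.57 and Kcnj13 at 3.09 FPKM next; Kcnj13 moved from rank 25 to rank 5 and Kcna2 from rank 6 to rank 9. Some low members had larger differences in length. The length behind Kcnip4, which encodes a Kv4 channel-interacting protein, was 164773 bases against 3627 bases in GENCODE, and that behind Kcnd2, the pore gene of a rapidly inactivating Kv channel, was 98276 against 5152 bases. Kcnd2 therefore stood at a mean of 0.03 FPKM with 156 reads summed over the soft and 114 over the stiff libraries. Lengths over 5 times the GENCODE exons were found for 3 of 59 members (5.08%) and for 98 of 14629 genes with a GENCODE length (0.67%). Such a length scales all 6 libraries alike, so it bears on levels between genes and on which genes pass the filter, not on the ratio of FPKM between groups. It does bear on differences in log2(FPKM + 1), the scale of the test below, and so on calls made there. On that scale the added 1 shrinks a difference more at a lower FPKM.

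**Figure D2:**
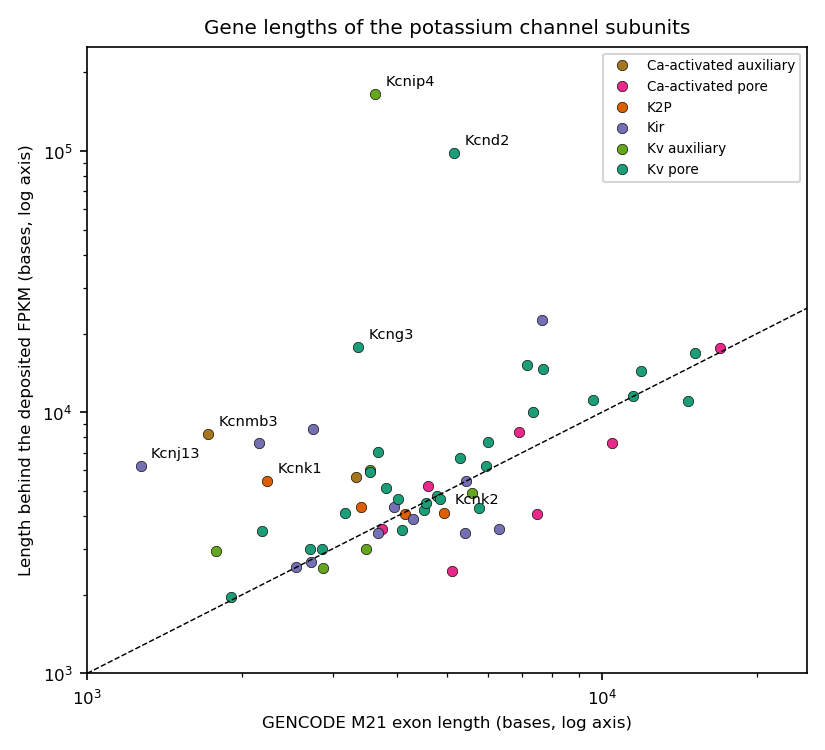
Length behind the deposited FPKM against the summed exon length in GENCODE M21 for the 59 potassium channel subunits, in bases on log axes, coloured by subfamily; the dashed line marks equal lengths. Kcnip4 and Kcnd2 lie far above the line at 164773 and 98276 bases, and Kcnk1 and Kcnk2 lie on opposite sides of it.

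Matrix stiffness was compared next, which asks whether the gel around differentiating organoids acts on these genes. In stiff gels Kcnk1 was higher and Kcnj2 was lower, and no other member was called. The test was limma on log2(FPKM + 1) over all 11780 genes with a mean of at least 1 FPKM in either group, with Benjamini-Hochberg adjustment over all of them. Of the 59 members 21 passed this filter, 4 of them (Kcnh2, Kcnj2, Kcnj11 and Kcnj15) through 1 group only; the remaining 38 were untested here and are described further on. The background was 3.13% of all tested genes called higher and 2.68% called lower (5.81% in all). The filter's edge fell between Kcna6, at 0.841 FPKM in stiff gels, and Kcnj11, at 1.25 FPKM. The median log2 fold change of the tested members was -0.04, beside 0.03 over all tested genes, with 10 members above and 11 below 0. At an unadjusted p under 0.05 there were 6 members higher and 6 lower, where 12.7% and 9.04% of all tested genes were (21.7% in all). Soft and stiff libraries did not overlap for 6 tested members with stiff above and 5 with stiff below, beside 15.5% and 10.4% of all tested genes (25.9% in all).

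**Figure D3:**
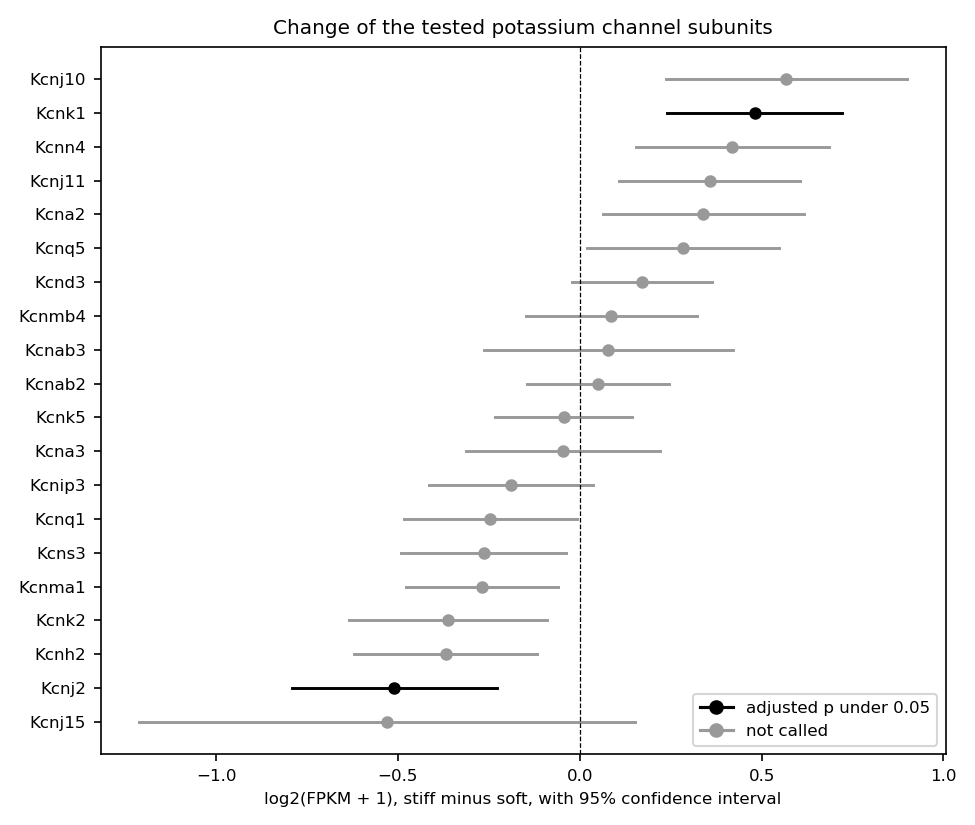
Difference in log2(FPKM + 1), stiff minus soft, for 20 of the 21 tested potassium channel subunits, with 95% confidence intervals from limma; black marks an adjusted p under 0.05 over all tested genes. Only Kcnk1 (0.48) and Kcnj2 (-0.51) are black, and the interval of Kcnj15 is the widest, from -1.21 to 0.15.

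Among K2P genes Kcnk1 rose and Kcnk2 did not pass the test. Kcnk1 went from 8.93 ± 1.37 FPKM (SD, n = 3) in soft to 12.8 ± 1.17 FPKM in stiff gels, which is 0.48 ± 0.11 (SE) on the log2(FPKM + 1) scale (limma adjusted p = 0.0348). Its stiff libraries all lay above its soft libraries, and soft replicate 1 was the soft library closest to them. Kcnk2 had means of 25.9 ± 3.84 and 19.9 ± 2.64 FPKM in soft and stiff gels (-0.36 ± 0.12 SE, limma adjusted p = 0.118), with soft replicate 1 at 21.5 FPKM below stiff replicate 2 at 22.9 FPKM. The ratio of Kcnk2 to Kcnk1 FPKM was 2.04, 3.5 and 3.41 in soft and 1.37, 2 and 1.35 in stiff replicates 1 to 3, a ratio formed after the values were seen and not tested. Without soft replicate 1, Kcnk2 was called lower (-0.49 ± 0.1 SE, limma adjusted p = 0.0116), in a fit where 7.28% of all genes were called higher and 6.5% lower (13.8% in all). Kcnk5, which encodes an acid-sensitive background channel, was level at 1.85 ± 0.123 and 1.76 ± 0.0803 FPKM (95% interval of the log2 difference -0.23 to 0.14). Kcnk6, a relative of Kcnk1, was under the filter with 0.194 and 0.227 FPKM.

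Kcnk1 was called in 2 of the 6 fits that left out a library, with limma adjusted p from 0.00256 without soft replicate 1 to 0.132 without soft replicate 2. It was called without stiff replicate 2 as well and lost without soft replicate 2, soft replicate 3, stiff replicate 1 or stiff replicate 3. Its log2 fold change stayed between 0.42 and 0.59 in these fits. The call was also lost without the filter on low values (limma adjusted p = 0.0619). The share of all genes called was 0.552% and 1.78% when soft replicate 2 or 3 was left out, 0.958% and 1.22% when stiff replicate 1 or 3 was, and 3.71% (1.88% higher, 1.83% lower) with stiff replicate 2 removed.

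Kir genes went both ways. Kcnj2, which encodes the strong inward rectifier that sets the resting potential in muscle and endothelium (chromosome 11, 111066164 to 111076825), had 1.14, 1.36 and 1.49 FPKM in the soft group and 0.649, 0.876 and 0.41 FPKM in stiff replicates 1 to 3. The groups did not overlap, and the lowest library, stiff replicate 3, rested on 36 reads against 108 to 145 reads in the soft libraries. Kcnj2 fell by 0.51 on the log2(FPKM + 1) scale (SE 0.12, limma adjusted p = 0.0478), which understates the change of so low a gene: the difference was -1.11 ± 0.25 (SE) with limma-voom on the rebuilt reads (adjusted p = 0.0255). Kcnj2 passed the filter only through the soft group, where it was high. The call was lost with a pseudocount of 0.1, without the filter, and in 4 of the 6 fits that left out a library (limma adjusted p up to 0.159, without soft replicate 3); it held without soft replicate 1 and without stiff replicate 2. The endothelial marker list, a cell type known for Kcnj2, summed to 392 to 458 FPKM in soft and 340 to 426 FPKM in stiff libraries, mostly from Emcn, while Pecam1 was at 0.07 and 0.05 FPKM and Cdh5 at 1.24 and 0.98 FPKM. In the same list Kdr was at 24.7 ± 5.17 and 10.7 ± 2.04 FPKM and Flt1 at 0.931 ± 0.319 and 0.269 ± 0.115 FPKM. Both were lower in stiff gels without overlap, like Kcnj2. Tek and Tie1 had higher means in stiff gels, with overlap, at 4.9 and 5.37 FPKM and at 0.02 and 0.04 FPKM. The list's part in the result was not tested.

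Kcnj10, which encodes the Kir channel of glia, supporting cells and strial intermediate cells (chromosome 1, 172341210 to 172374085), had 1.32, 0.89 and 0.939 FPKM in the soft group and 2.71, 1.55 and 1.92 FPKM in stiff replicates 1 to 3. The stiff libraries all lay above the soft ones, but the change of 0.57 ± 0.15 (SE) was not called (limma adjusted p = 0.0574). It was called with limma-voom on rebuilt reads (0.94 ± 0.25 SE, adjusted p = 0.047), without soft replicate 1 (limma adjusted p = 0.0203) and without stiff replicate 2 (0.0444). With the voom fit, too, it was called in 2 of 6 fits that left out a library. Supporting and prosensory markers summed to 507 to 615 FPKM in soft and 690 to 758 FPKM in stiff libraries, without overlap, and glial markers to 100 to 140 and 127 to 151 FPKM, with overlap, with S100b at 3.95 ± 0.497 and 6.39 ± 1.13 FPKM. Of the melanocyte markers Tyr, Tyrp1 and Dct were not analysed here. Kit, from the same list, was at 33.6 and 35.3 FPKM in soft and stiff gels. Mlana was at 0.27 and 0.21, Pmel at 0.67 and 0.83 and Mitf at 0.26 and 0.18 FPKM. The melanocyte list summed to 32.9 to 37.3 FPKM in soft and 33.8 to 39.3 FPKM in stiff libraries, mostly from Kit. The part of these cell types in the level of Kcnj10 was not tested.

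The other Kir members did not pass the test. Kcnj11, the pore gene of the ATP-sensitive channel, had means of 0.76 ± 0.189 and 1.25 ± 0.145 FPKM in soft and stiff gels, with all stiff libraries above the soft ones (0.36 ± 0.11 SE, limma adjusted p = 0.0942). Abcc8, the sulfonylurea receptor gene that lies beside Kcnj11 and encodes its usual partner, was at 0.13 and 0.07 FPKM. Kcnj15 was set by single libraries, with 2.91 FPKM in soft replicate 2 and 0.174 FPKM in stiff replicate 3 against 0.958 to 1.34 FPKM in the other four (limma adjusted p = 0.36). Kcnj8, the pore gene of the vascular ATP-sensitive channel, was under the filter with 46 reads over the soft and 20 reads over the stiff libraries. Its partner gene Abcc9 was at 0.73 ± 0.28 and 0.275 ± 0.126 FPKM and was called lower by limma-voom (-1.44 ± 0.37 SE, adjusted p = 0.0411), a call that held in 2 of the 6 fits that left out a library (adjusted p up to 0.161). The pericyte and smooth muscle list, which holds both of these genes, summed to 28 to 40.6 FPKM in soft and 18.1 to 23.7 FPKM in stiff libraries, with Rgs5 at 18.2 ± 2.18 and 8.5 ± 0.841 FPKM and Acta2 at 0.44 and 0.17 FPKM. Myh11 was higher in all stiff libraries (0.141 and 0.227 FPKM) and Cspg4 was at 0.277 and 0.292 FPKM; the list's part was not tested.

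Some Kir genes lie next to each other in the genome and are given side by side. Kcnj16 and Kcnj2 are 38196 bases apart on chromosome 11. Kcnj16, which encodes a partner of Kcnj10, had 0.722, 0.725 and 0.349 FPKM in the soft group and 0.845, 0.796 and 0.849 FPKM in stiff libraries, above the soft ones, whereas Kcnj2 was below them. With limma-voom Kcnj16 was not called (0.52 ± 0.28 SE, adjusted p = 0.326). Kcnj9, 11888 bases from Kcnj10, had 5 reads over the soft and 7 over the stiff libraries. On chromosome 3, Kcna3 and Kcna2 are 52754 bases apart, with Kcna3 at 1.25 ± 0.272 and 1.18 ± 0.2 FPKM and Kcna2 at 1.67 ± 0.432 and 2.35 ± 0.205 FPKM.

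**Figure D4:**
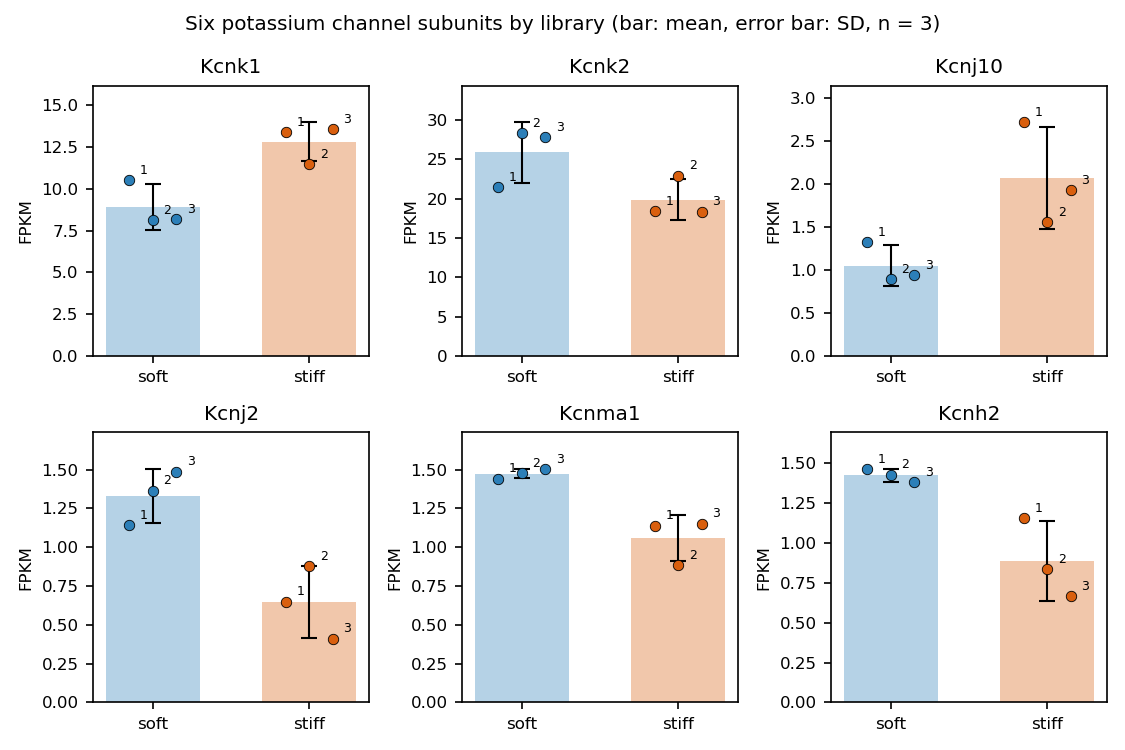
FPKM of Kcnk1, Kcnk2, Kcnj10, Kcnj2, Kcnma1 and Kcnh2 in soft and stiff gels; bars are means, error bars SD (n = 3) and points libraries numbered by replicate, on axes from 0. The groups do not overlap for 5 of the 6 genes, and for Kcnk2 soft replicate 1 (21.5) lies below stiff replicate 2 (22.9).

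Of the calcium-activated members none was called by limma on log2(FPKM + 1). Kcnma1, the pore gene of the BK channel, which in hair cells speeds the receptor potential (chromosome 14, 23292288 to 24005110), had 1.44, 1.48 and 1.5 FPKM in the soft group and 1.14, 0.886 and 1.15 FPKM in stiff replicates 1 to 3. The groups did not overlap and the soft libraries lay close together, but on the log2(FPKM + 1) scale the change was -0.27 ± 0.09 (SE, limma adjusted p = 0.13). On rebuilt reads, 269 to 359 in stiff and 442 to 476 in soft libraries, limma-voom called it lower (-0.51 ± 0.11 SE, adjusted p = 0.0203), a call that held in 2 of the 6 fits that left out a library, with adjusted p up to 0.0825 without soft replicate 2. The BK auxiliary gene Kcnmb4 was at 1.26 ± 0.231 and 1.4 ± 0.101 FPKM (limma adjusted p = 0.7). Kcnn4, the intermediate-conductance channel gene of epithelia, was at 1.45 ± 0.369 in soft and 2.25 ± 0.147 FPKM in stiff gels, with no overlap between groups (0.42 ± 0.12 SE, limma adjusted p = 0.0734), and was called higher only when soft replicate 1 was left out (0.0116). Kcnn2, the small-conductance channel gene that acts at the efferent synapse of hair cells, was under the filter, with 18, 9 and 6 reads in soft and 21, 22 and 32 reads in stiff libraries; limma-voom did not call it (1.29 ± 0.42 SE, adjusted p = 0.0989).

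Among the 8 tested Kv pore genes and 3 tested Kv auxiliary genes, 0 were called, by limma on log2 values or by limma-voom; at an unadjusted p under 0.05 there were 2 Kv pore genes higher and 3 lower with the first, beside 21.7% of all tested genes in both directions. limma-voom on rebuilt reads tested 21 Kv pore genes, of which 6 were higher and 5 lower at that p, beside 21.4% of all genes. Kcnh2, the pore gene of the rapid delayed rectifier (chromosome 5, 24319589 to 24351684), had 1.46, 1.43 and 1.38 FPKM in the soft group and 1.16, 0.838 and 0.667 FPKM in stiff libraries, all below the soft ones (-0.37 ± 0.11 SE, limma adjusted p = 0.0903). Kcna2, a Shaker-type delayed rectifier gene, had 2.13, 1.6 and 1.28 FPKM in the soft group and 2.55, 2.14 and 2.37 FPKM in stiff libraries; soft replicate 1 almost touched the lowest stiff library (0.34 ± 0.12 SE, limma adjusted p = 0.145), and Kcna2 was called higher when soft replicate 1 was left out (0.0208). Kcns3, a silent subunit gene that modifies other Kv channels, was at 2.5 ± 0.088 and 1.93 ± 0.348 FPKM (-0.26 ± 0.1 SE, limma adjusted p = 0.162). Kcnd3, the highest Kv pore gene, which encodes a rapidly inactivating channel, was at 2.83 ± 0.263 and 3.3 ± 0.206 FPKM with overlap (limma adjusted p = 0.288), and its auxiliary partner Kcnip3 was at 2.99 ± 0.448 and 2.49 ± 0.198 FPKM (0.32). The beta subunit genes Kcnab2 and Kcnab3 were at 1.3 and 1.38 FPKM and at 1.59 and 1.71 FPKM.

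Kcnq1, Kcnq3 and Kcnq5 encode slow Kv channels. Kcnq1, the channel gene of strial marginal cells (chromosome 7, 143106877 to 143427050), had 1.3, 1.51 and 1.6 FPKM in the soft group and 1.29, 0.884 and 1.08 FPKM in stiff libraries; the highest stiff value lay just under the lowest soft value (-0.25 ± 0.11 SE, limma adjusted p = 0.217). Kcnq5 was at 1.25 ± 0.315 and 1.73 ± 0.182 FPKM, with soft replicate 1 at 1.6 FPKM close to the lowest stiff library (0.28 ± 0.12 SE, limma adjusted p = 0.199); it was called higher when soft replicate 1 was left out (0.041). Kcnq3 was under the filter and had 0.587, 0.386 and 0.375 FPKM in the soft group and 0.667, 0.65 and 0.665 FPKM in stiff libraries (limma-voom 0.56 ± 0.19 SE, adjusted p = 0.0986). For Kcnq1, Kcnq3 and Kcnq5 the groups did not overlap, with Kcnq1 lower and the other two higher in stiff gels. For all genes listed, stiff libraries lay wholly above soft ones in 14.5% and wholly below in 10.3%.

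Of the 38 members under the filter, 24 had at least 10 reads in at least 3 libraries and were tested with limma-voom on rebuilt reads; 0 were called, while 4 were higher and 3 lower at an unadjusted p under 0.05. Over all 45 members tested that way, Kcnk1 and Kcnj10 were called higher and Kcnj2 and Kcnma1 lower, beside 3.5% of 13501 genes called higher and 3.96% called lower (7.46% in all). At an unadjusted p under 0.05 there were 11 members higher and 9 lower, beside 10.4% and 11% of all genes (21.4% in all). Kcnb2, a delayed rectifier gene, had 92, 70 and 85 reads in soft and 110, 116 and 115 reads in stiff libraries (adjusted p = 0.109). Kcnh1, the ether-a-go-go channel gene, had 100, 138 and 119 reads in soft and 94, 99 and 67 reads in stiff libraries (adjusted p = 0.219). Kcnj13, which encodes a weakly rectifying Kir channel of transporting epithelia, had 206 reads summed over the soft and 203 over the stiff libraries. The other 14 members were below that depth. Among them Kcna5 had 3 reads over the soft and 14 over the stiff libraries. Kcng4, a silent subunit gene, had 0 reads over the soft and 8 over the stiff libraries, where a count of 0 allows up to 3 reads for counting error alone. These low members were tested only in the limma fit without the filter, where 0 members were called.

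**Figure D5:**
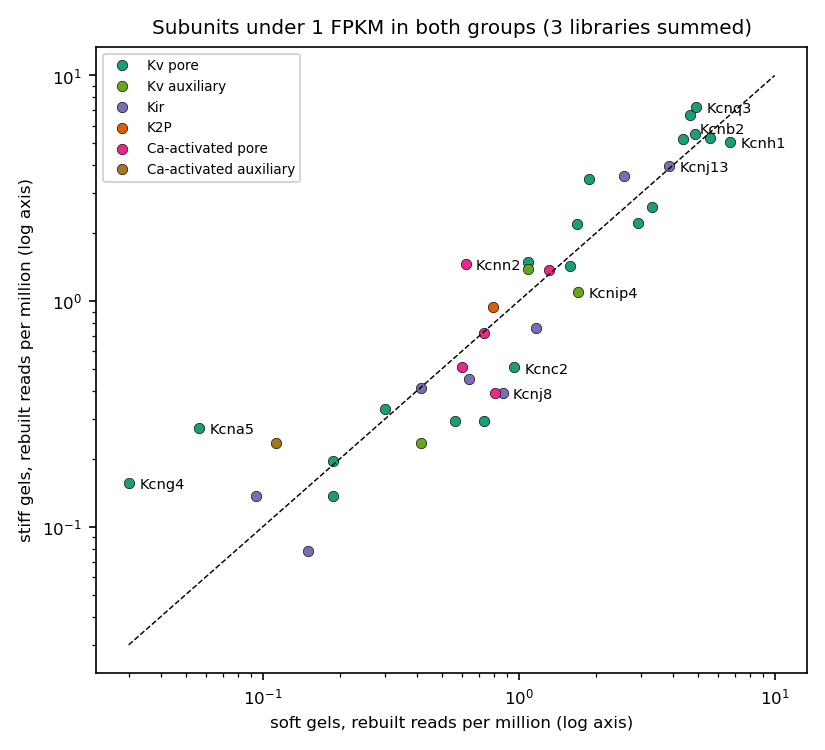
Rebuilt reads as CPM (counts scaled to library depth), summed over the 3 soft libraries (x axis) and the 3 stiff libraries (y axis), both on log axes, for the 38 potassium channel subunits under 1 FPKM in both groups; the dashed line marks equal values. Kcnn2 lies above the line at 1.47 CPM in stiff gels, and Kcng4, with 0 reads in soft gels, is drawn at the left edge of 0.03.

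In the authors' deposited table, 3 members were higher and 4 lower at q under 0.05, where 3.44% and 4.68% of the 15016 listed genes were. The higher ones were Kcnk1 (log2 fold change 0.49, q = 0.000671 in the authors' deposited table), Kcnj10 (0.95) and Kcna2 (0.47). The lower ones in the authors' deposited table were Kcnj2 (-1.07), Kcnh2 (-0.7), Kcnma1 (-0.51) and Kcnk2 (-0.41).

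Other genes of potassium handling, in a list of 35 that holds pumps, cotransporters, channel partners and gap junction genes, gave 29 listed and 18 tested genes, of which 1 was higher and 1 was lower. Over all tested genes 3.13% were called higher and 2.68% lower. At an unadjusted p under 0.05 there were 8 higher and 2 lower (6 and 2 with median-ratio scaling), beside 12.7% and 9.04% of all tested genes, and the list's median log2 fold change was 0.11, beside 0.03 over all. Gjb6, which encodes the gap junction protein connexin of cochlear supporting cells, had 0.543, 0.864 and 0.582 FPKM in the soft group and 1.15, 1.37 and 1.29 FPKM in stiff libraries (0.45 ± 0.11 SE, limma adjusted p = 0.0432). Slc12a4, a potassium-chloride cotransporter gene, fell from 12.5 ± 2.05 to 8.46 ± 0.646 FPKM (-0.51 ± 0.11 SE, limma adjusted p = 0.0356). Gjb6 passed the filter only through the stiff group, where it was high; without the filter its limma adjusted p was 0.0381. Gjb6 lost its call in all 6 fits that left out a library (limma adjusted p from 0.0508 to 0.141), and Slc12a4 in 5 of them. The partner connexin gene Gjb2 was at 108 ± 15.3 and 141 ± 10 FPKM (limma adjusted p = 0.072). Slc12a2, the cotransporter that loads potassium into strial marginal cells, was at 14.6 ± 0.596 and 16.2 ± 0.563 FPKM (limma adjusted p = 0.222). The pacemaker channel genes Hcn2, Hcn3 and Hcn4 were at 0.88, 1.06 and 0.28 FPKM in soft and at 0.82, 1.22 and 0.4 FPKM in stiff gels.

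The promoters of the 2 called members are printed for reference, from 250 bases before to 50 bases after a transcription start in RefSeq (GRCm38.p6), 5′ to 3′ along the gene. The Kcnj2 window spans the gene start at 111066164. The Kcnk1 window lies inside the gene, downstream of the gene start at 125993655. Promoter windows were matched by symbol for 44 of the 59 members (63 windows). Capitals mark CACCC or its complement GGGTG, the core read by Kruppel-like factors, and GGAATG or its complement CATTCC, the core read by TEAD factors, searched on both strands. Over all 32851 windows, 57.5% held the first and 14.7% the second, against 81% and 12.7% of the members' windows. The other motifs searched, on both strands, were TGANTCA of AP-1 (7.81% of all and 6.35% of the members' windows), TGGGAA of RBPJ (25.6% and 28.6%), TATAAA, the TATA box (13.6% and 6.35%) and CACGTG, the E-box (7.15% and 4.76%). The median GC content was 52.7% over all windows and 59.7% over those of the members.
Kcnk1, chr8:125994852-125995151, plus strand: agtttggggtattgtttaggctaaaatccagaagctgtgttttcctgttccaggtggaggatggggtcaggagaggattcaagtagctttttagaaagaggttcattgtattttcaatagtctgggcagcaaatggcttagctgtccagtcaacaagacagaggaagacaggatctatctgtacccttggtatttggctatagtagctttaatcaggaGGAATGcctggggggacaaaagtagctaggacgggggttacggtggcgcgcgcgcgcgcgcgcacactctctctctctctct
Kcnj2, chr11:111065914-111066213, plus strand: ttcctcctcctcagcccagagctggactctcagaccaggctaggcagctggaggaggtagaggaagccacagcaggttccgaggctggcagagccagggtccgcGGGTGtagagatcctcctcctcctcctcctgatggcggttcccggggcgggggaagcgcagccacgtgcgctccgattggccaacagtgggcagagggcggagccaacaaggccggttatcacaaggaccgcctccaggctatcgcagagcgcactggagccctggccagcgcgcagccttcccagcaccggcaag

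The Kcnk1 window held 1 TEAD core and no Kruppel-like core, and the Kcnj2 window the reverse. With no binding data here, such a match is a description of the letters and not of a working site.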

How the data were processed

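Organoids in soft and stiff gels were measured by RNA-seq, 3 libraries each, grouped as labelled. The authors deposited FPKM per library; the header says only expression, and the unit was read from the values. Alignment with TopHat2 2.1.1 to mm10 and DESeq2 are named per the submitters' processing notes; the sources used here name no counter or annotation. The deposited base mean is a signal, the mean normalized count over the libraries; the deposited log2 fold change, p-value and q-value are the authors' own, per the file headers. The library kit does not mark strand, so overlapping antisense reads cannot be told apart.

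Whole reads were rebuilt from the steps between low FPKM and from the base mean; 100% of values were whole within 0.05 reads. Gene lengths followed from the same steps. limma 3.58.1 (R 4.3.3, eBayes with trend) was fitted to log2(FPKM + 1); limma-voom with TMM scaling was run on rebuilt reads as an alternative. Calls are at an adjusted p under 0.05. Tested on simulated data for stiff against soft gels (11729 genes), limma recovered 89% of genes changed 1.5-fold and 100% of those changed 2-fold. Of its 200 calls there 11 were false. The changes were set only in genes with a mean of at least 1.5 FPKM, with a spread smoothed over level. These shares therefore do not hold for members of lower mean or for libraries that differ more. Intervals and floors cover counting error only where reads are meant. Named were the called members, up to 3 members with the highest mean in each subfamily, those with textbook roles in the cochlea, those called under another setting or with groups that did not overlap at a mean of 1 FPKM or more, and a set of other potassium genes; Kcna3, Kcna5, Kcna6, Kcnb2, Kcnd2, Kcng4, Kcnh1, Kcnip4, Kcnj8, Kcnj9 and Kcnq3 were named after their values were seen. The members and lists were chosen with earlier results of these data known. Some named items are not reported here.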

Additional observations from a re-analysis of the deposited data

How the results depend on the processing

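Counts of called members were small and moved with nearly every choice. Members called higher were 0 without the filter on low values, 2 with limma-voom on rebuilt reads, 2 with the replicate number as a block, and 0 to 5 when a library was left out; members called lower were 0 with a pseudocount of 0.1, 0 without the filter, 2 with limma-voom, 0 with the replicate block, and 0 to 2 when a library was left out. With limma-voom and a library left out, chosen after seeing the data, 0 to 7 were higher and 0 to 5 lower. Both highest counts came without soft replicate 1. The share of all genes called in these limma-voom fits was not computed, so these counts describe the members only. In the limma fit on log2 values without that library, 13.8% of all genes were called. The median log2 fold change was -5.07e-05 without the filter, -0.0168 with limma-voom, and -0.0673 to 0.000157 when a library was left out. Other potassium handling genes called were 1 without the filter and 0 to 5 when a library was left out. Over the fits that left out a library, signs changed for Kcna3 (-0.111 to 0.0498), Kcnab3 (-0.0495 to 0.242) and Kcnmb4 (-0.000215 to 0.138), none of them called. With the replicate block Kcnj10 was called higher (limma adjusted p = 0.0199) and Kcnj2 was not called (0.0608). Median-ratio scaling and eBayes without trend kept both counts. The numbers did not pair the libraries (correlation of deviations 0.00873, 0.219 and -0.211), so the block is no better fit. The causes of these shifts were not tested; fits without a library also hold fewer samples. Depth limits 14 members with too few reads for limma-voom; they were tested only in the fit without the filter.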
